A study of Mus musculus with 8 samples.

Results

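Ccnd2, Ccnd3, Ccne1, Ccne2, Cdkn1a, Cdkn1b, Cdkn2a, Cdkn2c and Cdkn2d were followed through OT-I T cells sorted from pancreatic tumours. These 9 genes were taken by name from the 32285 genes of the deposited matrices. The donor cells were CD8+ T cells with a Cas9 knock-in and the OT-I receptor, which recognises ovalbumin, and all of them had been transduced with a lentiviral CRISPR library against metabolic genes and selected on CD90.1. They were injected into Rosa26-Cas9 mice that bore orthotopic tumours of KPC_OVA, a mouse pancreatic ductal adenocarcinoma line engineered to make ovalbumin, and CD90.1+ cells were sorted from the primary tumour 7 days later. Recipients were treated with anti-PD-1 from the day of transfer (3 libraries, here replicates 1, 2 and 3) or with IgG (1 library). Each arm drew on several mice, but how many gave cells to each library is not stated in the sources used here, so p-values measure the spread between libraries.

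The passage from G1 into S phase is driven by cyclins that activate cyclin-dependent kinases (CDKs). D-type cyclins, made in response to antigen and cytokines, pair with CDK4 and CDK6 and begin the phosphorylation of the retinoblastoma protein. E2F factors released by that step switch on S phase genes, among them those of the E-type cyclins, which pair with CDK2. The INK4 proteins (from Cdkn2a, Cdkn2c and Cdkn2d) block CDK4 and CDK6, and the CIP/KIP proteins p21 (Cdkn1a) and p27 (Cdkn1b) bind cyclin-CDK complexes more broadly. CD8+ T cells divide rapidly after antigen, and p27 is known to restrain their division.

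Of 56359 barcodes, 23805 had exactly 1 guide called and 23059 were kept, split over the libraries as 2535, 2597 and 6432 (anti-PD-1 replicates 1 to 3) and 11495 cells (IgG). The median cell held 16829, 16325, 12084 and 6329 UMIs (unique molecular identifiers, counted RNA molecules) in the same order. The libraries shared between 3 and 18 cell barcodes a pair. Markers of the sorted type were present, with Cd8a, Cd8b1, Cd3e, Cd3d and Trac together at 4552 to 5282 CPM (UMIs of a gene as a share of all UMIs of the summed cells, scaled to a fixed total) in each library. Of 40 marker genes of other cell types 39 were detected and Cldn4 was at 0, with a summed level of 42.7 to 240 CPM per library, the top of which was 1 anti-PD-1 library with 201 CPM of B and plasma cell genes. Anti-PD-1 replicates 1 and 2 stood apart from replicate 3 and IgG: Trac lay at 1918 and 1769 CPM in the first pair and at 798 and 700 CPM in the second.

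Promoters were taken from a table of RefSeq starts (build GRCm38.p6) that held 11 starts of 7 of the 9 genes, Ccnd2 and Ccne2 not being analysed here, and the 250 bases before each start were searched on both strands. The sequences of 4 of the genes described below are shown up to the first base of the GENCODE gene, with letters of the searched motifs in capitals. They are shown because each of these genes differed between phases or states below. The Ccne1 window is chr7:38107535-38107740 (minus strand), the Cdkn1a window chr17:29090729-29090975 (plus strand), the Cdkn1b window chr6:134920151-134920400 (plus strand) and the Cdkn2a window chr4:89294654-89294869 (minus strand).
Ccne1: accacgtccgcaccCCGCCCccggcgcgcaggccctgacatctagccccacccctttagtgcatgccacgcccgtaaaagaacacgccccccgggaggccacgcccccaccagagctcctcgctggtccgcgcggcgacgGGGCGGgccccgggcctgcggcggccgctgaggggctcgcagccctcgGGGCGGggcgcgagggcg
Cdkn1a: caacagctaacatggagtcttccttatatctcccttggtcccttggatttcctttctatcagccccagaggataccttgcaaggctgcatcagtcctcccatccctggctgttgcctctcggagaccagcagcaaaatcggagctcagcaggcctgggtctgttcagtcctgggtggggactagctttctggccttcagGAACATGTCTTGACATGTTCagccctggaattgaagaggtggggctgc
Cdkn1b: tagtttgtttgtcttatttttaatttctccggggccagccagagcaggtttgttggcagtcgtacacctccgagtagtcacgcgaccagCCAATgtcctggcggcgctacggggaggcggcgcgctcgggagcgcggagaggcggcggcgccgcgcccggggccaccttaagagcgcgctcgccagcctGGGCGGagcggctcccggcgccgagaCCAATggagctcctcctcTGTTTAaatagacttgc
Cdkn2a: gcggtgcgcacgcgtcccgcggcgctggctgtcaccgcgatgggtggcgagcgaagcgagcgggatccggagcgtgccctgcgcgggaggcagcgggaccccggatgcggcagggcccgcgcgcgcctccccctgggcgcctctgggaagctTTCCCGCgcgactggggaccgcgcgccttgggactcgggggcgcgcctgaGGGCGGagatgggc
In the Ccne1 window the capitals mark GC boxes (GGGCGG or its complement), found in the same length before 32.7% of 32851 starts. The Cdkn1a window held a p53 element, 2 abutting half-sites with at most 1 mismatch, 51 to 32 bases before the start, and 25 of all starts (0.0761%) held one. The other Cdkn1a start, inside the gene, held none. In the Cdkn1b window the capitals mark 2 CCAAT boxes (33.8% of starts), 1 GC box and the FOXO letters TGTTTA (12% of starts). The Cdkn2a window held E2F letters (TTCCCGC or TTGGCGC, 5.62% of starts) and 1 GC box. It belongs to only 1 of the 2 Cdkn2a starts, and the other, inside the gene, held none of the searched motifs. E2F letters stood before 2 of the 11 starts, 1 of Cdkn2a and 1 of Cdkn2c, GC boxes before 8 and the cell cycle homology letters TTTGAA before none. These matches are letters in a window, not binding sites.

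Phases were called from 42 S phase and 54 G2M genes that include none of the 9, and a cell with neither score above 0 was called G1. G1 cells, resting cells included, made up 49.5% to 59.2% of a library, S cells 18.8% to 26.5% and G2M cells 22% to 27.4%. Counts were summed over the cells of each phase and library, and phases were compared within libraries by edgeR's quasi-likelihood test with Benjamini-Hochberg adjustment over all genes. Phases were built from genes of the same cells, and much of the transcriptome differed between them. In S, 28.4% of 12157 genes were higher and 30.3% lower than in G1, and 27.1% were higher and 29.9% lower in G2M. Of the 9 genes, 4 were higher and 2 lower in S, and 6 were higher and 1 lower in G2M. The values below are on the CPM scale, a share of the RNA counted.

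**Figure D1:**
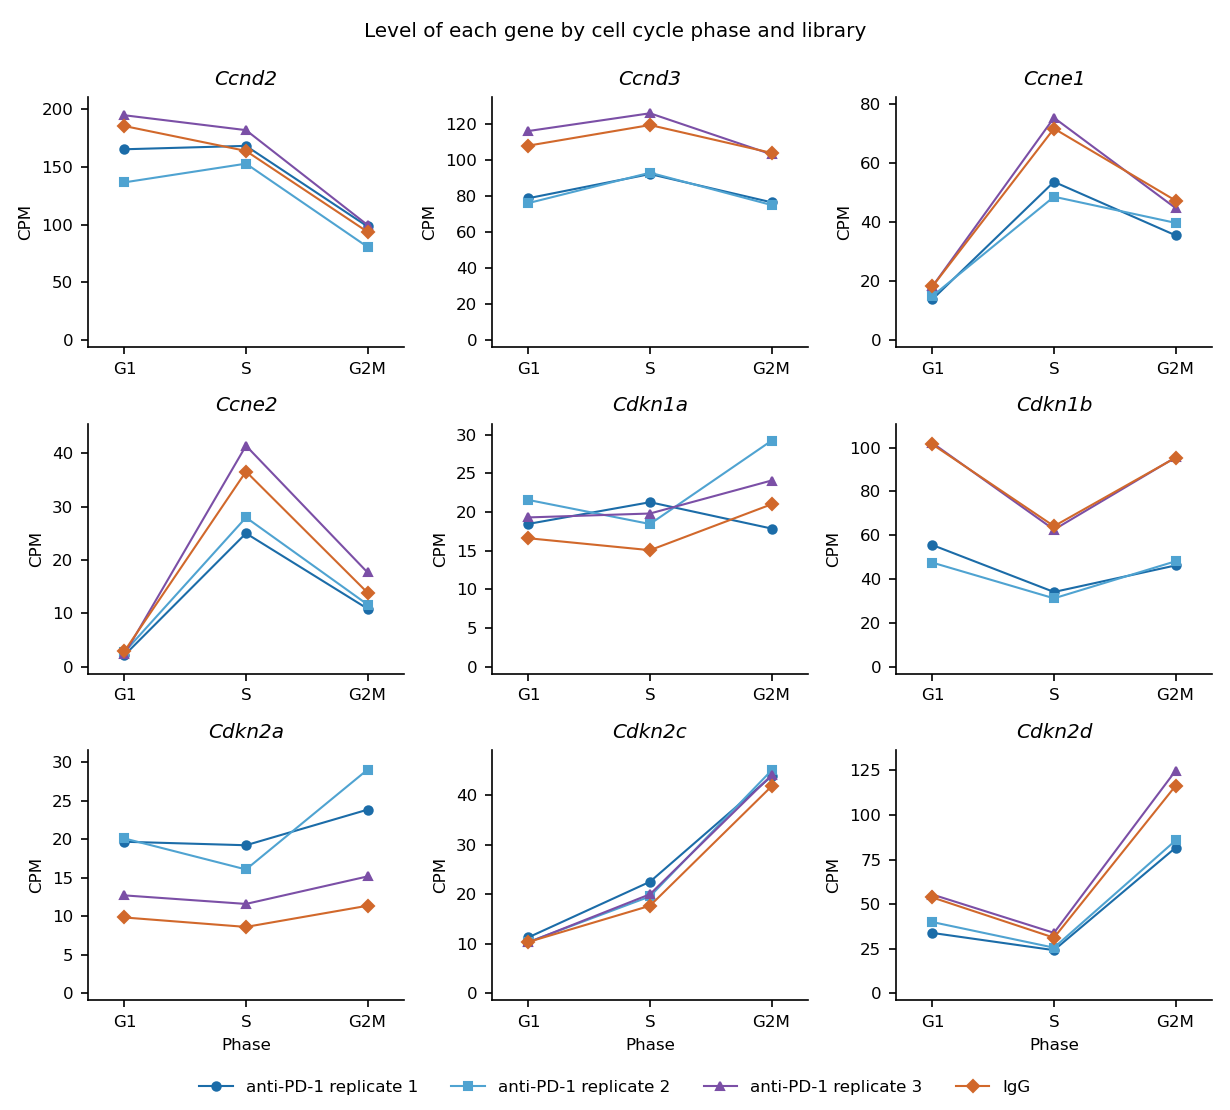
CPM of each gene (vertical axis, from 0) in G1, S and G2M cells (horizontal axis) of each library, with 1 line per library. Ccne1 and Ccne2 peaked in S in all 4 libraries, Cdkn2c and Cdkn2d peaked in G2M, and Ccnd2 was lowest in G2M.

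The E-type cyclins were highest in S. Ccne2 (chr4:11191351-11204779, plus strand) lay at 2.15, 2.75, 2.36 and 2.9 CPM in the G1 cells of anti-PD-1 replicates 1, 2 and 3 and IgG, and at 25, 27.9, 41.4 and 36.6 CPM in their S cells. The groups did not overlap, and Ccne2 was 13.5-fold higher in S (log2 fold change 3.75, SE 0.10, adjusted p = 2.14e-15). In G2M it stood at 10.9 to 17.7 CPM, between the other phases in every library (2.48, SE 0.11, adjusted p = 2.23e-12 against G1). Ccne1 (chr7:38097984-38107534, minus strand) rose from 13.8, 14.9, 18.2 and 18.2 CPM in G1 to 53.6, 48.5, 75.3 and 71.6 CPM in S, a 3.85-fold difference (1.95, SE 0.06, adjusted p = 1.75e-14). It was still 2.6-fold higher in G2M than in G1 (1.38, SE 0.06, adjusted p = 2.34e-12), at 35.5 to 47.3 CPM. For both E-type cyclins the order S, G2M, G1 held in 4 of 4 libraries with no overlap between phases.

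The D-type cyclins showed a different order. Ccnd2 (chr6:127125162-127152193, minus strand) lay at 165, 137, 195 and 185 CPM in G1 and at 168, 153, 182 and 164 CPM in S, with 2 libraries higher and 2 lower (-0.02, SE 0.05, adjusted p = 0.72). In G2M it fell to 98.5, 80.8, 99.8 and 93.8 CPM, below every G1 and S value (fell by 0.86 on the log2 scale, SE 0.05, adjusted p = 1.11e-10). Ccnd3 (chr17:47505051-47599691, plus strand) was 1.15-fold higher in S than in G1, in 4 of 4 libraries (0.20, SE 0.04, adjusted p = 2.1e-04). Its G2M level, 75 to 104 CPM, did not pass the test against G1 (-0.06, SE 0.04, adjusted p = 0.168). Ccnd1, the D-type cyclin of many other tissues, stayed under 1 CPM in every phase and library.

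Among the INK4 genes, Cdkn2c and Cdkn2d were highest in G2M. Cdkn2c (p18, chr4:109660876-109667189, minus strand) lay at 11.3, 10.4, 10.3 and 10.4 CPM in G1, at 22.5, 19.6, 20 and 17.7 CPM in S and at 43.8, 45, 44.1 and 41.8 CPM in G2M. The 3 phases did not overlap, with a 1.89-fold difference in S (0.92, SE 0.06, adjusted p = 8e-10) and a 4.18-fold difference in G2M (2.06, SE 0.05, adjusted p = 1.3e-15). Cdkn2d (p19, chr9:21288410-21291407, minus strand) lay at 33.9, 40, 55.4 and 53.8 CPM in G1, dipped to 24.2, 25.6, 33.9 and 31.2 CPM in S and reached 81.7, 85.7, 125 and 116 CPM in G2M. It was thus lower in S (fell by 0.67 on the log2 scale, SE 0.05, adjusted p = 3.78e-09) and higher in G2M (1.17, SE 0.04, adjusted p = 1.77e-13), each in 4 of 4 libraries. Cdkn2a (chr4:89274471-89294653, minus strand) encodes both p16 and Arf from alternative first exons, which the 3-prime counts of 1 gene identifier cannot separate. Its S level did not pass the test (-0.16, SE 0.08, adjusted p = 0.0943), and its G2M level was 1.27-fold higher than in G1 in 4 of 4 libraries (0.34, SE 0.07, adjusted p = 5.63e-04).

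The CIP/KIP genes differed from each other. Cdkn1b (chr6:134920401-134925513, plus strand) fell from 55.5, 47.5, 102 and 101 CPM in G1 to 34.1, 31.2, 62.6 and 64.1 CPM in S (fell by 0.67 on the log2 scale, SE 0.04, adjusted p = 2.94e-10), in 4 of 4 libraries. Its G2M level, 46.2 to 95.5 CPM, was back near G1 (-0.09, SE 0.04, adjusted p = 0.0553). Cdkn1a (chr17:29090976-29100727, plus strand), the classical p53 target, lay at 18.5, 21.6, 19.3 and 16.6 CPM in G1 and at 21.3, 18.5, 19.8 and 15.1 CPM in S (-0.01, SE 0.09, adjusted p = 0.922). It was 1.23-fold higher in G2M (0.30, SE 0.09, adjusted p = 0.00671), with 3 libraries higher and anti-PD-1 replicate 1 lower.

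S and G2M cells held more RNA, which sets the scale of these differences. Their median UMI counts were 20584.5 and 23569 against 13237 in G1 cells of anti-PD-1 replicate 1, and 7925 and 8144 against 5284.5 in IgG. On a scale of UMIs per cell, chosen after seeing the data, the median of all genes shifted to 0.56 in S and 0.67 in G2M, and the share of calls that were higher went from 48.4% to 97.5% in S and from 47.5% to 98.6% in G2M. Cdkn1b (-0.07, SE 0.05, adjusted p = 0.193) and Cdkn2d (-0.07, SE 0.06, adjusted p = 0.267) were then past no threshold in S, while 0.57 for Ccnd2 and 0.57 for Cdkn1a lay at the shift of all genes. Ccnd2 was still called lower in G2M per cell (-0.15, SE 0.06, adjusted p = 0.0176), but not in every library. Its UMIs per 100 cells fell from G1 to G2M in anti-PD-1 replicate 3 (217 to 180) and IgG (106 to 82.7). They did not fall in replicate 1 (239 to 252) or replicate 2 (195 to 196). Per 100 cells, IgG held 30.8 Cdkn2d UMIs in G1, 26.4 in S and 103 in G2M, and 58.1, 54.3 and 84 of Cdkn1b. On either scale Ccne1, Ccne2 and Cdkn2c rose above the median of all genes in both phases.

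**Figure D2:**
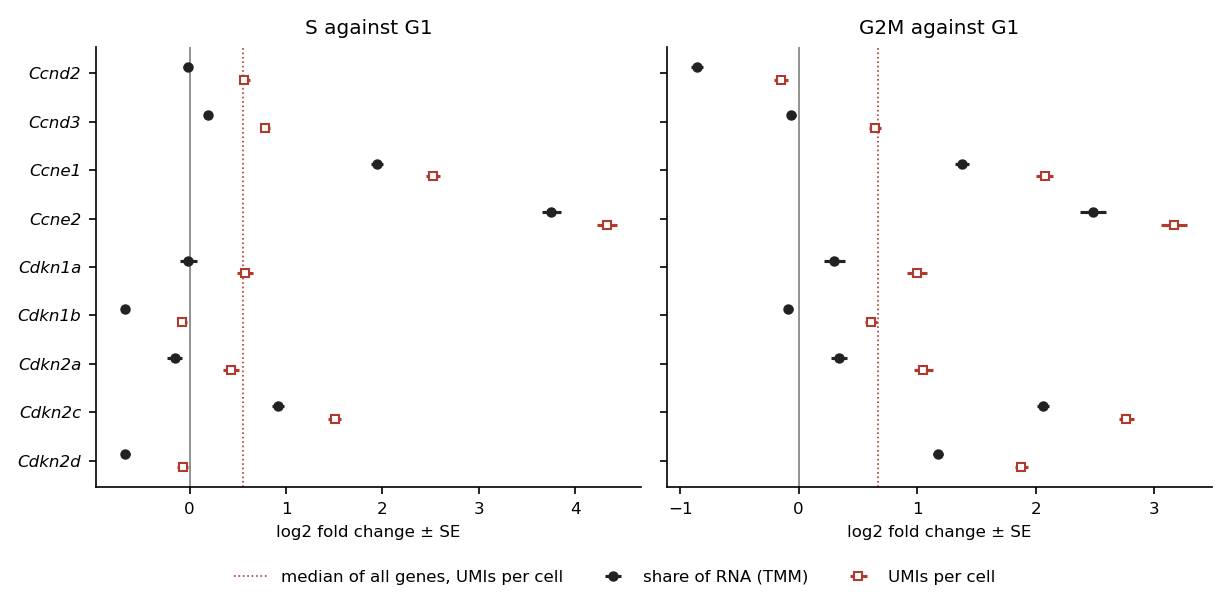
Log2 fold change with its SE (horizontal axis) of each gene in S and in G2M against G1, as a share of RNA (filled) and as UMIs per cell (open), with the per-cell median of all genes dotted. Cdkn1b and Cdkn2d lie below 0 in S as a share of RNA and near 0 per cell.

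Markers of other cell types summed to 51.4 to 99.1 CPM in G1 cells, 37.7 to 50.8 in S and 33.3 to 690 in G2M. Without the 54 cells that held 10 or more such UMIs, Cdkn1a kept its G2M call. With only the 2685 cells of nontargeting guides, Ccnd3 in S (0.15, adjusted p = 0.267) and Cdkn2a in G2M (0.06, adjusted p = 0.826) lost their calls, and Cdkn1a in G2M turned to -0.12, while Cdkn2a in S gained one (-0.55, adjusted p = 0.0399).

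Other genes of the pathway were read from lists, some of whose members had been used to call the phases (Cdk1, Cks1b and E2f8). Of 13 pocket protein and E2F genes, 11 were higher and 1 lower in S, with a median log2 fold change of 1.18 against -0.03 over all genes. They were led by E2f8 (5.44, SE 0.12) and E2f7 (5.34, SE 0.15), E2F family repressors, and by E2f1 (3.61, SE 0.07). Of 10 CDKs and their partners, 7 were higher and 1 lower in S, Cdk2, the partner of the E-type cyclins, by 1.87 (SE 0.06). Of 8 measured genes of cyclin E and p27 turnover, 5 were higher and 1 lower, and Skp2, which marks p27 for degradation, was higher by 1.74 (SE 0.07). None of 10 quiescence and FOXO genes was higher and all 10 were lower in S. Of 19 measured p53 targets, 1 was higher and 13 were lower in S, and 1 was higher and 14 lower in G2M. In G2M, 10 of the pocket protein and E2F genes were higher, 6 CDKs and partners were higher and 2 lower, and 4 turnover genes were higher and 1 lower. Of the quiescence and FOXO genes, 2 were higher and 7 lower in G2M. Of 9 growth input genes, 1 was higher and 4 lower in S, and 2 were higher and 4 lower in G2M. These counts are on the scale of a share of RNA, where 30.3% of all genes were lower in S and 29.9% in G2M, and the lower calls depended on it. Per cell, of the p53 targets 10 were higher and 4 lower in S and 11 higher and 1 lower in G2M, of the quiescence and FOXO genes 4 were higher and 3 lower in S and 8 higher and 2 lower in G2M, and no growth input gene was lower in either phase. Of the other inhibitors, Cdkn3, a phosphatase that acts on CDKs, rose from 4.3 to 4.92 CPM in G1 to 70.8 to 103 CPM in G2M (4.26, SE 0.06, adjusted p = 9.84e-19). Cdkn2b stayed between 0.593 and 3.79 CPM and was lower in S (fell by 1.71 on the log2 scale, SE 0.20, adjusted p = 1.28e-06), and Cdkn1c stayed under 1 CPM.

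Within the G2M cells Cdkn2c and Cdkn2d were unevenly spread. Clusters of cells were made with the 9 genes left out, and most G2M cells fell into cluster 2 or cluster 4. Cluster 2 was led by histone genes and left unnamed, and cluster 4 was proliferating G2/M-like and led by Ccnb2, Cdkn3, Hist1h2bc and Cdc20. These clusters were singled out after their values were seen, so they are described with no test. Cdkn2c lay at 68.2, 67, 62.9 and 62.9 CPM in the G2M cells of cluster 2 and at 6.75, 7.45, 4.21 and 6.15 CPM in those of cluster 4. The ratio was 10.1, 8.99 and 14.9 under anti-PD-1 (replicates 1 to 3) and 10.2 under IgG, from only 14 to 29 UMIs a library in cluster 4. Cdkn2d lay at 110 to 170 CPM in cluster 2 and 28.4 to 51.3 CPM in cluster 4, ratios of 2.92 to 4.34. Ccne1 (63.1 ± 8.42 against 25.7 ± 4.9 CPM, mean ± SD, n = 4) and Ccne2 (21.9 ± 7.75 against 8.09 ± 1.26 CPM) were also higher in cluster 2 in every library. Ccnd2 went the other way, at 73 ± 7.31 CPM in cluster 2 and 97.7 ± 20.4 CPM in cluster 4, higher in cluster 4 in every library. Ccnd3 (91.8 against 89 CPM), Cdkn1b (73.9 against 68.2 CPM) and Cdkn2a (21.2 against 20.4 CPM) had ratios on both sides of 1. Cdkn1a was 2.46, 3.16 and 2.92 times higher in cluster 2 in 3 libraries and near equal in anti-PD-1 replicate 2 (0.981).

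**Figure D3:**
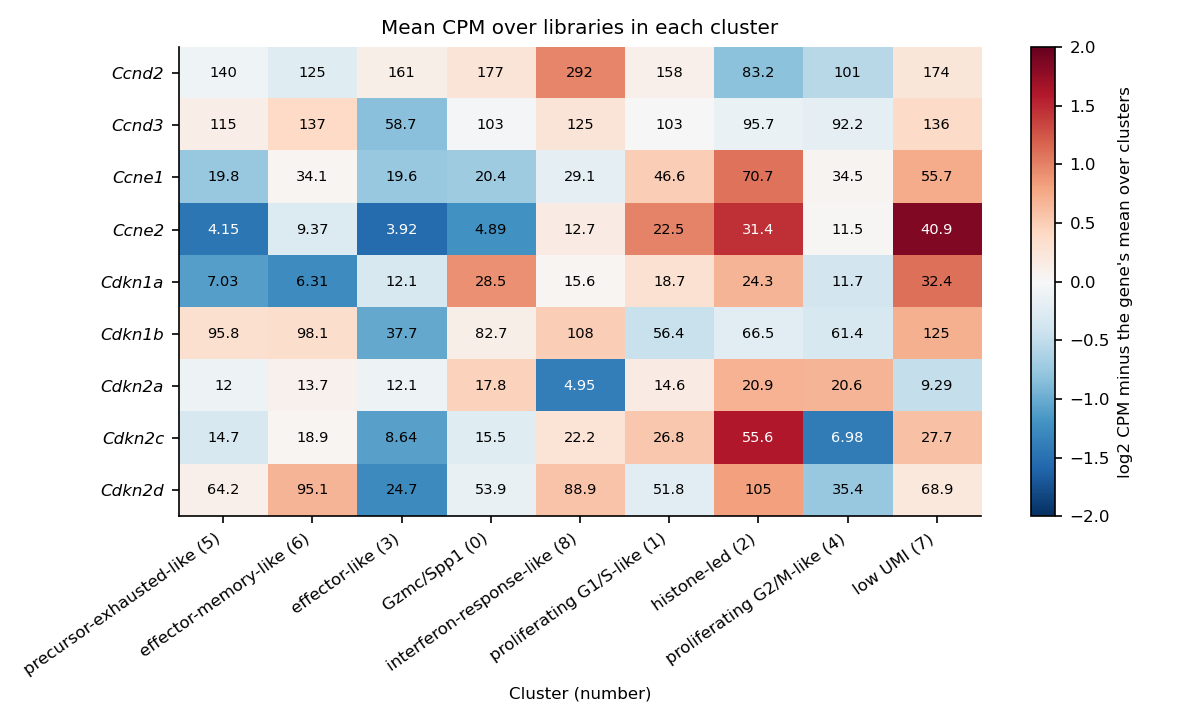
Mean CPM over the libraries with cells (printed in each cell of the map) of each gene in each cluster, coloured by log2 CPM minus the gene's mean over clusters, with colours capped at 2. Cdkn2c was highest in the histone-led cluster 2 and low in cluster 4, and Cdkn1a was high in cluster 0.

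Differentiation states were compared among G1 cells only, to hold the called phase constant. Clusters entered if their markers named a differentiation state, as did the cluster with the highest mean of a list of exhaustion markers. Clusters named for proliferation or interferon response, and other unnamed ones, did not. The 4 states were cluster 0 (7901 cells in all phases, led by Gzmc, Spp1 and Fcer1g), the effector-like cluster 3 (3064), the precursor-exhausted-like cluster 5 (1557) and the effector-memory-like cluster 6 (736). Cluster 0 was left unnamed and entered by its mean of the exhaustion list (0.445 on the log2 scale). All 4 had at least 20 G1 cells in every library. Each state was set against the mean of the other 3, with the library as a block. The states are clusters of these same cells, and 75.3% of 10514 genes differed among them, as did 7 of the 9 genes. The E-type cyclins were the exceptions, with adjusted p = 0.966 for Ccne1 and 0.834 for Ccne2. Ccne2 rested on 0 to 65 UMIs a state and library.

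Among these 4 states Cdkn1a was highest in cluster 0. It lay at 29.5, 33.8, 24.6 and 23.9 CPM there, at 8.62, 10.3, 11.8 and 11.4 CPM in the effector-like state, at 9.8, 13.7, 6.54 and 5.25 CPM in the precursor-exhausted-like state and at 5.83, 3.42, 5.38 and 1.5 CPM in the effector-memory-like state. Cluster 0 did not overlap with any other state, and Cdkn1a was 3.78-fold higher in it (1.92, SE 0.13, adjusted p = 5.01e-12), where 18.1% of genes were higher and 17% lower. The level was also high in the cycling cells of cluster 0, at 22.8 to 50 CPM in S and 24 to 46.4 CPM in G2M. Over all phases, the mean of cluster 0 (28.5 CPM) lay near those of clusters 2 (24.3 CPM) and 7 (32.4 CPM, 2 libraries), which held few G1 cells. Of the other genes, Cdkn2a (0.53, SE 0.11, adjusted p = 2.49e-04) and Ccnd2 (0.27, SE 0.05, adjusted p = 1.83e-04) were higher in cluster 0 in 4 of 4 libraries. Cdkn1b (0.16, SE 0.05, adjusted p = 0.0231) and Cdkn2c (0.34, SE 0.13, adjusted p = 0.0395) were called with less margin. Cdkn1b lost its call without anti-PD-1 replicate 3 (adjusted p = 0.224) or IgG (0.196), and Cdkn2c without anti-PD-1 replicate 2 (0.0561), replicate 3 (0.162) or IgG (0.144), and under DESeq2 (0.102).

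Of 19 measured p53 targets in cluster 0, 5 were higher and 1, Fas, was lower (fell by 0.99 on the log2 scale, SE 0.11), with a median of 0.07 against -0.004 over all genes. Ccng1 (0.28, SE 0.06) was among the 5. Cdk6, a partner of the D-type cyclins, was higher (0.67, SE 0.07) and Cdk4 lower (fell by 0.43, SE 0.06). Il2ra (1.34, SE 0.09) and Il2rb (0.73, SE 0.05), chains of the interleukin-2 receptor, were higher, and Myc was lower (fell by 0.74, SE 0.09). None of 8 turnover genes was higher and 4 were lower. These counts are on the scale of a share of RNA, where 18.1% of all genes were higher and 17% lower in cluster 0. Per cell, 1 turnover gene was higher and 3 were lower, and 7 p53 targets were higher and 1 lower.

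The effector-like state had the lowest levels of several inhibitors. Cdkn1b lay at 30.4, 26.9, 48 and 51.9 CPM there, under its level in every other state of the same library, and was 2.44-fold lower (-1.29, SE 0.06, adjusted p = 6.7e-16). Cdkn2d was 2.71-fold lower at 19 to 30.5 CPM (-1.44, SE 0.10, adjusted p = 4.88e-13). Ccnd3 was 1.96-fold lower at 47.7 to 68.4 CPM (-0.97, SE 0.07, adjusted p = 6.86e-12), with no overlap with the other states. Cdkn2c was 1.64-fold lower (-0.71, SE 0.16, adjusted p = 3.11e-04). These 4 lower calls compare with 32.4% of all genes lower and 31.6% higher in this state. Cdkn1a (0.21, adjusted p = 0.308), Cdkn2a (-0.24, adjusted p = 0.101) and Ccnd2 (0.09, adjusted p = 0.149) did not pass the test. Of the growth input list 6 of 9 genes were higher, led by Myc (1.87, SE 0.08), Il2ra (1.67, SE 0.09) and Stat5a (1.32, SE 0.10), and Cdk4 was higher by 0.93 (SE 0.06). None of 10 quiescence and FOXO genes was higher and 9 were lower, though some genes of that list also served as markers to name states.

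**Figure D4:**
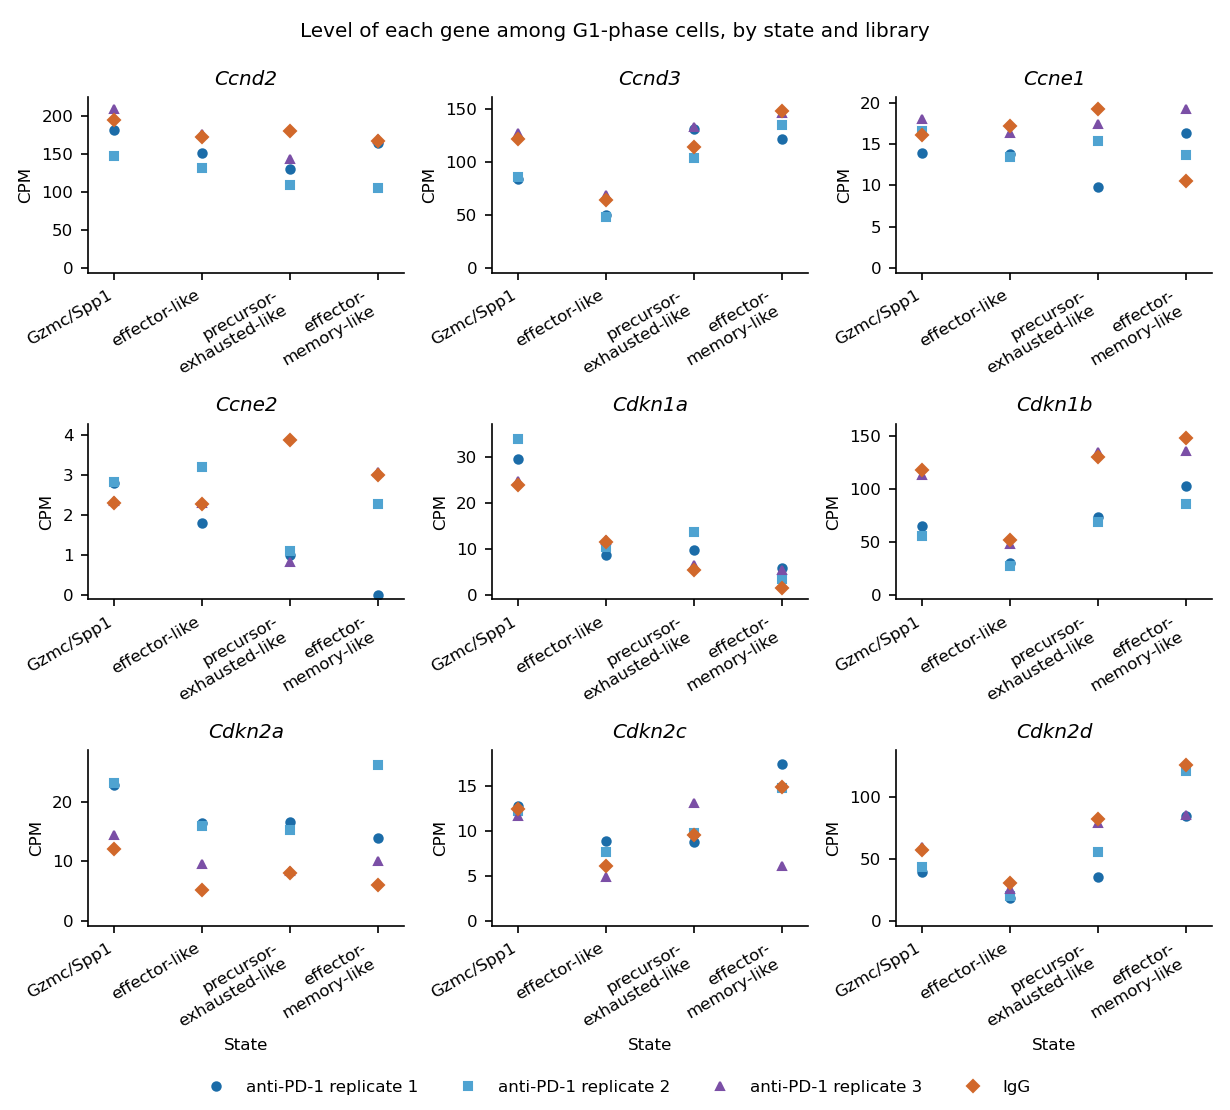
CPM (vertical axis, from 0) of each gene in the G1 cells of 4 states (horizontal axis), with a point per library and no joining lines. Cdkn1a was higher in the Gzmc/Spp1 cluster than in every other state, and Cdkn1b, Cdkn2d and Ccnd3 were lowest in the effector-like state.

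In the precursor-exhausted-like state, where 17.9% of genes were higher and 16.5% lower, Cdkn1b was higher at 73.5, 68.4, 135 and 131 CPM (0.47, SE 0.06, adjusted p = 1.12e-06), in 4 of 4 libraries. Ccnd3 was higher (0.35, SE 0.08, adjusted p = 5.56e-04), in 4 of 4 libraries. Cdkn2d was higher (0.37, SE 0.10, adjusted p = 0.00325) in 3 of 4 libraries and Ccnd2 lower (fell by 0.20, SE 0.06, adjusted p = 0.0118) in 3 of 4. Cdkn2d lost its call without anti-PD-1 replicate 3 (adjusted p = 0.0655) or IgG (0.0514), and Ccnd2 lost its own without anti-PD-1 replicate 1 (0.0501) or 3 (0.185). Tfdp2, a partner of E2F, was higher by 1.67 (SE 0.12), and Cdk6 was lower (fell by 0.83, SE 0.10).

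In the effector-memory-like state, where 17.9% of genes were higher and 20.7% lower, Cdkn2d was 2.27-fold higher at 85.1, 121, 85.3 and 126 CPM (1.18, SE 0.12, adjusted p = 9.08e-09), above its level in the other states in 4 of 4 libraries. Cdkn3, a gene that was high in G2M cells, was also higher in the G1 cells of this state (1.59, SE 0.27, adjusted p = 2.53e-05) and lower in those of the effector-like state (fell by 1.33 on the log2 scale, SE 0.20, adjusted p = 1.51e-06), and its part in the result for Cdkn2d was not tested. Without cells near a phase boundary Cdkn2d was 1.18 higher in this state and fell by 1.43 in the effector-like state. Cdkn1b (0.66, SE 0.08, adjusted p = 1.62e-07) and Ccnd3 (0.54, SE 0.10, adjusted p = 5.07e-05) were higher in 4 of 4 libraries. Cdkn1a was lower (-1.70, SE 0.35, adjusted p = 2.93e-04), from 1 to 7 UMIs a library. Cells of this state held less RNA, with a median UMI count 0.648 times that of their libraries. Per cell, Cdkn2d was higher (0.69, SE 0.11, adjusted p = 2.79e-06) while Cdkn1b (0.17, adjusted p = 0.0912) and Ccnd3 (0.03, adjusted p = 0.823) were not, against a median shift of -0.55 over all genes, with 8.81% of calls higher per cell and 46.4% as a share of RNA. Of 10 quiescence and FOXO genes 7 were higher, some of them markers that named this state. Of 9 growth input genes 6 were lower and 1 higher, Il2ra by the most (fell by 2.70 on the log2 scale, SE 0.19). Of 19 p53 targets 3 were higher and 4 lower. Plk2, among the lower, had no UMI in this state in any library, and Bbc3 (1.37, SE 0.27) and Trp53inp1 (1.09, SE 0.19) were among the higher. These list counts are on the scale of a share of RNA and depended on it. Per cell, 2 p53 targets were higher and 11 lower, and 0 growth input genes were higher and 8 lower. Of the quiescence and FOXO genes, 5 were higher and 2 lower per cell.

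Markers of other cell types summed to 53.6 to 155 CPM in the G1 cells of cluster 0, 36.7 to 48.9 in the effector-like, 62.8 to 99.7 in the precursor-exhausted-like and 80.9 to 110 in the effector-memory-like state, and without the cells that held 10 or more such UMIs no state call on the 9 genes was lost. Cells of nontargeting guides alone are fewer, and among them 10 of the state calls were lost. Cdkn1a in cluster 0 (4.11, SE 0.50, against 1.92 with all cells) and Cdkn1b, Cdkn2d and Ccnd3 in the effector-like state held. Few UMIs stood behind Cdkn1a in the effector-memory-like state even with all cells, so the size of 4.11 is uncertain. Per cell, the share of calls that were higher went from 51.5% to 79.7% in cluster 0, from 49.4% to 71.7% in the effector-like and from 52% to 80.5% in the precursor-exhausted-like state, where Ccnd2 lost its call (-0.06, adjusted p = 0.591).

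Anti-PD-1 and IgG were then compared, the question of the study's treatment arm. With 1 IgG library the fit assumes that IgG varies like the anti-PD-1 libraries. edgeR's quasi-likelihood test called 0% of 13810 genes (0 genes, 282 at an unadjusted p under 0.05, 5 by DESeq2), and 0% of 12631 genes in G1 cells (0 genes, 178 unadjusted, 2 by DESeq2). A term for the library pair described next raised these to 283 and 178 calls and turned the direction of 6 of the 9 genes over all cells (Ccnd2, Ccnd3, Ccne2, Cdkn1b, Cdkn2c and Cdkn2d), none of the 9 being called. Differences of the phase effects between treatments were called for 0% of 12605 genes (252 unadjusted, 0 by DESeq2, 40 without a filter and 295 without anti-PD-1 replicate 3). Cdkn2a had the largest difference of the 9, at 20.9, 22 and 13.2 CPM under anti-PD-1 and 10.1 CPM under IgG (0.91, SE 0.33, unadjusted p = 0.0384, adjusted p = 0.987). Cdkn1a lay at 21.1 ± 2.07 CPM (SD, n = 3) against 17.7 CPM (0.27, SE 0.18, adjusted p = 0.987). The IgG value lay inside the range of the anti-PD-1 libraries for Ccnd2, Ccnd3, Ccne2, Cdkn1b, Cdkn2c and Cdkn2d, and outside it for Ccne1, Cdkn1a and Cdkn2a. How many of all genes lay inside was not counted, so this describes the libraries and is no result about the 9 genes.

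The libraries differed by pair. Replicates 1 and 2, whose titles share a stem, and replicate 3 with IgG did not overlap for 8 of the 9 genes over all cells and 6 of the 9 in G1 cells, a description with no test. Over all genes tested, 65.7% did not overlap between these pairs over all cells and 63.7% in G1 cells. Cdkn1b lay at 45.9 and 43.1 CPM against 91 and 90.2 CPM, 2.03 times higher in the second pair, and Ccnd3 1.38, Cdkn2d 1.43 and Ccnd2 1.17 times higher. Cdkn2a was 1.84 times higher in the first pair. Treatment and pair can be told apart only through replicate 3, and with a term for the pair, Cdkn1b differed by 0.01 (SE 0.12) between replicate 3 and IgG. Without replicate 3, where treatment and pair cannot be told apart and the spread comes from replicates 1 and 2 alone, 3316 genes passed the test, Cdkn1b (fell by 0.998 on the log2 scale, adjusted p = 6.77e-20) and Cdkn2a (1.11, adjusted p = 2.76e-22) among them. What made the pairs differ was not tested, and no label or file names a batch. The methods of the study speak of integrating a pair of batches, without saying in the sources used here which libraries each held.

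**Figure D5:**
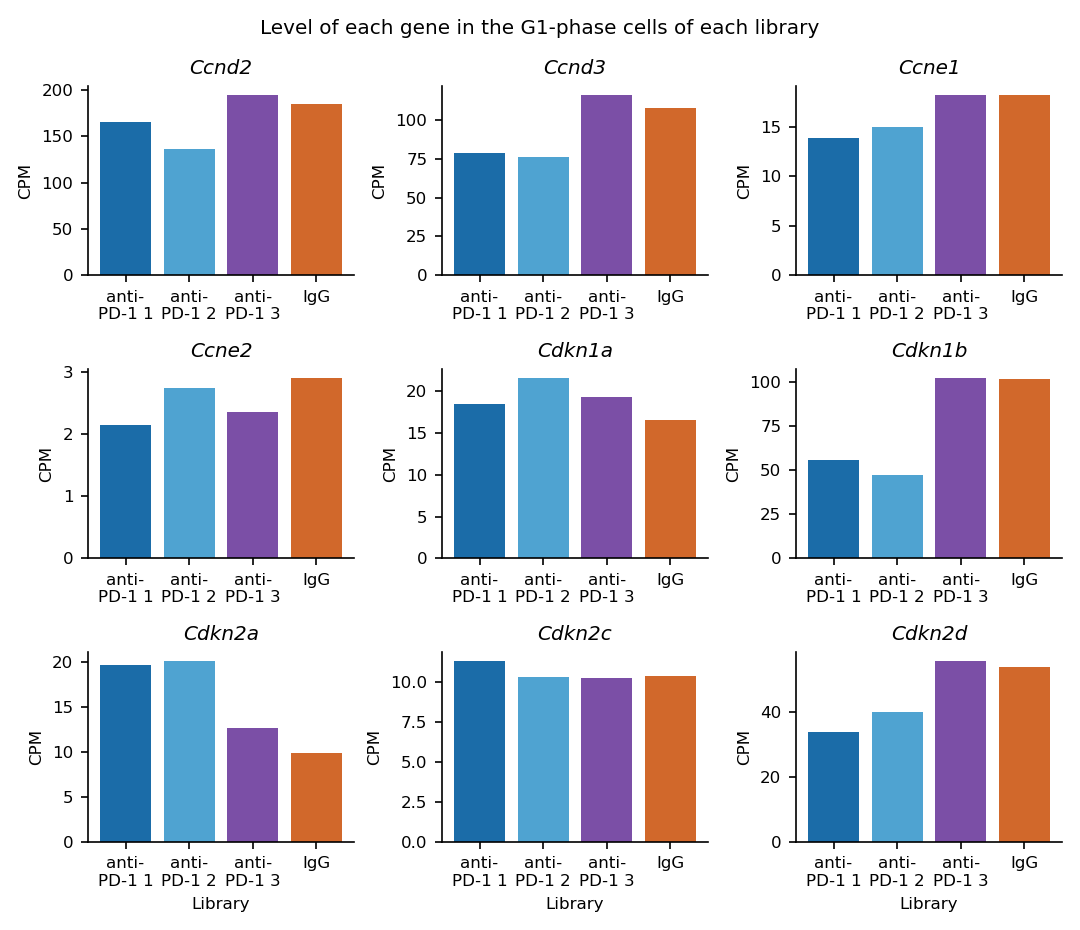
CPM (vertical axis, from 0) of each gene in the G1 cells of each library (1 bar per library, no error). Anti-PD-1 replicates 1 and 2 did not overlap with replicate 3 and IgG for 6 of the 9 genes (63.7% of all genes), with Cdkn1b at 55.5 and 47.5 against 102 and 101 CPM, and overlapped for Ccne2, Cdkn1a and Cdkn2c.

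Guides against metabolic genes gave no call on the 9 genes. Between the 20374 cells with a targeting guide and the 2685 with a nontargeting guide, 0.153% of 12387 genes were called (19 genes) and no member. Among the 9, Cdkn2c came closest (fell by 0.13 on the log2 scale, SE 0.06, unadjusted p = 0.0375, adjusted p = 0.798). Ccna2, the S and G2 cyclin, was called (fell by 0.20, SE 0.04, adjusted p = 0.0267). Over 82 targets with enough cells, 0.0514% of gene and target pairs were called (390 of 759074), and 0 of the 738 pairs that involve the 9 genes, of which 36 (4.88%) had an unadjusted p under 0.05, against 4.40% of all pairs, and the lowest adjusted p was 0.356. limma-voom likewise called 0 of these pairs. Per target, Ccnd3 spread from -0.32 to 0.29 and Cdkn1b from -0.50 to 0.48 on the log2 scale. Less abundant genes spread more widely, Cdkn1a from -1.18 to 1.23, Cdkn2a from -1.51 to 0.86, Ccne2 from -1.56 to 0.44 and Cdkn2c from -3.22 to 0.48.

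Over 32 sums of a cluster in a library, each library centred, the 9 genes fell into a few patterns, given as correlations across sums that share libraries and cells. Ccne1 and Ccne2 ran together (Pearson r = 0.91), as did Ccnd3 and Cdkn1b (0.85) and Cdkn2c and Cdkn2d (0.75), and Ccnd2 ran against Ccne1 (-0.64). Among 8553 genes, Ccne1 was most like Dek, Gmnn and Slbp (0.97, 0.96 and 0.96), and Ccne2 most like Mcm5, Rrm1 and Casp8ap2 (0.97, 0.96 and 0.96), most of them genes of the S phase list. Cdkn2c was most like Cenpl, Esco2 and Hist1h4d (0.90, 0.89 and 0.88), and Cdkn2d most like Wrn, Elf2 and Spata6 (0.92, 0.85 and 0.83). Cdkn1a was most like Rgs1, Nfil3 and Gpd2 (0.88, 0.85 and 0.85). Cdkn1b was most like Ccpg1, B4galt1 and Tnrc6b (0.93, 0.91 and 0.90), and Ccnd3 most like B4galt1, Psap and Zcchc18 (0.91, 0.90 and 0.88). Ccnd2 was most like Araf, Zfp280c and Zbtb4 (0.76, 0.76 and 0.72), and Cdkn2a most like Ufsp2, Fance and Slc39a4 (0.92, 0.92 and 0.92).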

How the data were processed

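Libraries were 10x 3-prime gene expression with guide capture, and the deposited values are raw UMI counts per gene and cell barcode that the authors made with Cell Ranger 3.1.0 on mm10, per the labels. Cells with exactly 1 guide in the deposited guide calls were kept if their log10 UMI count lay within 3 scaled median absolute deviations of their library's median and at most 10% of UMIs were mitochondrial. No doublet caller was run, so doublets were limited only by these filters and the single guide call. Phases were scored with scanpy 1.11.5, and cells were integrated (2000 variable genes, 30 canonical components) and clustered with Seurat 5.3.0 (15 components, resolution 0.3), with the 9 genes left out of both. Clusters were named by marker lists, and a difference from the study may come from these rebuilt names.

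Counts summed over cells of a library (at least 20 cells) were tested with edgeR 4.0.16 (TMM, filterByExpr, quasi-likelihood, library as a block where groups share libraries, adjusted over all genes, threshold 0.05), and single targets needed at least 10 cells. Alternatives were DESeq2 1.42.0, its size factors, no filter, leaving out libraries, thinned or boundary-free phases, nontargeting cells, cells without other markers, other resolutions and minimums, and a term for the library pair. UMIs per cell and limma-voom (limma 3.58.1) were added after seeing the data. On simulated data the phase test recovered 200 of 200 changed genes (12157 genes) and the treatment test 95 of 200 (13810 genes).

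The 9 genes and all lists were chosen with earlier results of these data known. Besides the 9, up to 3 genes of each list with the largest called change were eligible to be named, every measured gene of the cyclins and inhibitors outside the 9, and the 3 most alike by correlation of log2 CPM (prior count 2, mean of at least 5 CPM).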

Additional observations from a re-analysis of the deposited data

Results flagged for a closer look

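In the precursor-exhausted-like state, Ccnd2 lay below the mean of the other states in the 3 anti-PD-1 libraries (log2 differences of -0.34, -0.21 and -0.36) and at 0.0182 above it in IgG. Cdkn2a likewise lay below in the 3 anti-PD-1 libraries (-0.06, -0.48 and -0.40) and at 0.14 above in IgG, from 28 to 35 UMIs a library. Both were picked out because the anti-PD-1 libraries moved one way and the IgG library the other. The difference between treatments was not tested, and IgG is 1 library.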

How the results depend on the processing

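No paired analysis was possible because IgG has a single library, so the treatment groups share only replicate number 1, and the term for the library pair used below is not a pairing by number. Phases and states were already compared within libraries. Of the recomputed values of the 9 genes (phases, states as a whole, the state differences called, and treatment over all cells and between phases), 695 kept their direction and side of the threshold, 30 lost a call, 10 gained one and 19 changed direction. With nontargeting cells only, 3250 genes were called in S, 3253 in G2M and 3317 among states (7140, 6933 and 7918 with all cells), and per cell 10404 were called in G2M. Leaving out 1 library gave 6006 to 6693 calls in S, 5919 to 6501 in G2M, 7006 to 7564 among states, 8 to 36 between guide classes, 0 to 3316 for treatment over all cells, 0 to 2544 in G1 cells and 0 to 295 for the treatment difference of phase effects, each highest treatment count being the one without anti-PD-1 replicate 3. The treatment difference of phase effects gave 40 calls without a filter. Treatment gave 5 calls over all cells and 2 in G1 cells by DESeq2, and 283 and 178 with a term for the library pair. Guide classes gave 6 calls by DESeq2, 103 without a filter and 5 with at least 5 guide UMIs (19 as reported). For single targets, limma-voom called 1759 pairs, 1099, 638, 603 and 809 without anti-PD-1 replicate 1, 2 or 3 or IgG, 706 without cells of other markers and 159 with at least 5 guide UMIs, against 390 by edgeR. DESeq2, no filter, left-out libraries and the cell and guide limits were not run in edgeR or DESeq2 for single targets.

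Among the phase differences and the treatment differences over all cells, these changed sign. In S against G1, Ccnd2 ranged from -0.072 to 0.036 over left-out libraries, above 0 without anti-PD-1 replicate 3 (0.0099) or IgG, and turned to 0.57 per cell, Cdkn1a ranged from -0.092 to 0.053 over left-out libraries, above 0 without anti-PD-1 replicate 2 or IgG (0.030), and turned to 0.021 with thinned cells, 0.0024 without cells of other markers and 0.57 per cell, and Cdkn2a to 0.43 per cell. In G2M, Ccnd3 turned to 0.64 and Cdkn1b to 0.61 per cell, and Cdkn1a, called at 0.30 with all cells, to -0.12 with nontargeting cells. For treatment, Ccnd2 ranged from -0.14 to 0.050 over left-out anti-PD-1 libraries, above 0 without replicate 2, and with the pair term Ccnd2 was 0.14, Ccnd3 0.065, Ccne2 0.084, Cdkn1b 0.011, Cdkn2c -0.035 and Cdkn2d 0.020. Except where the scale or the number of cells or libraries differed by construction, the cause was not tested. Few UMIs stood behind Ccne2 in G1 cells and Cdkn1a in the effector-memory-like state.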
